A study of Mus musculus with 2 samples.

Results

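The complement and coagulation genes are the 86 genes, of 34745 listed, that the authors' annotation places in the KEGG pathway mmu04610. They were taken by that entry. Of the 86, 72 had at least 10 counts over both libraries and were compared, out of 13561 such genes in all. The study asked what miR-182-5p, a microRNA, does in the liver that grows back after surgery. Liver RNA was sequenced from male mice aged 8 to 10 weeks, at day 3 after 2/3 partial hepatectomy (2/3 PH), an operation in which 70% of the liver is removed. The miR-182-5p KO mice were heterozygous, with the knockout on 1 allele, the WT mice carried none, and mice of both genotypes had the operation. Each genotype had 1 library, and neither the labels nor the paper's text says how many mice went into it. A difference between the libraries therefore has no replicate check and no test, and every interval below is a 95% interval that covers counting error only. The level of miR-182-5p, which would check the labels, was not analysed here.

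Hepatocytes make most of the clotting factors and complement components of plasma. In coagulation, a chain of serine proteases (F7, F9, F10, F11 and F12) ends in thrombin (F2), which turns fibrinogen into fibrin, and plasmin later dissolves the clot. Complement is a second chain of proteases, started by the C1 complex, by mannose-binding lectins or by factor B, which splits C3 and builds a pore from the terminal components. Serpins and surface regulators hold both chains in check, and receptors on leukocytes, platelets and endothelium read their products.

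Read counts added up to 13247497 in the KO and 13163348 in the WT library. The 13 protein genes of the mitochondrial genome took 51.7% of them in the KO and 31.0% in the WT library, so libraries were scaled by TMM, which gave factors of 0.812 and 1.23. With total counts in place of TMM, the log2 fold change of every gene falls by about the same amount, and the median of all genes goes from 0.00 to −0.60, so that a member between 0 and 0.60 with TMM is below 0 with total counts. Levels are given as FPKM, the authors' counts per gene length, which are scaled by total counts, and fold changes as log2 of KO over WT after TMM. A log2 fold change stands in parentheses after the counts of a gene, with its interval where that is given. The defining markers of hepatocytes were present, with *Alb* at 10010 FPKM in the KO and 15903 in the WT library, and the median log2 fold change of 9 hepatocyte markers was 0.05. An exception was *Apob*, with 1517 counts in the KO and 17808 in the WT library (−2.96).

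miR-182-5p itself is shown because the knockout targets it and the member genes were searched for its sites. Capitals mark its seed, bases 2 to 8. RefSeq places it at chr6:30165962-30165986 on the minus strand of GRCm38.p6.
mmu-miR-182-5p: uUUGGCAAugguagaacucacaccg
In its annotated 3′ UTR, 1 of the 72 members compared, *Tfpi*, held the 8-base match TTGCCAAA, which is 1.39% against 5.50% of 12541 genes. Either the 8-base match or a 7-base match (TTGCCAA or TGCCAAA) was found in 8 of 72 (11.1%) against 21.7% of all. The members' UTRs were shorter, with a median of 520.5 bases against 1309 bases. A match is a string of letters and not a shown site. A pair of them is given below with flanks, in GRCm38 transcripts and with the match in capitals, since *Tfpi* held the longest match and *C3ar1* passed 2-fold.
Tfpi: ggcacttcctTTGCCAAAatcacagaca
C3ar1: cagaacacagTGCCAAAtgccacccac
*Tfpi*, an inhibitor of tissue factor, had 73 counts in the KO and 87 in the WT library (0.34, −0.13 to 0.80). *C3ar1* is described with the receptors. Of the others, *C8a*, *F5*, *Fgb*, *Klkb1* and *Masp2* lay between −0.04 and 0.78. The median over the 8 members was 0.42, against 0.07 for the members with no match. Over all genes the median was 0.01 with a match and −0.02 without. A median of 8 genes from 1 library per genotype has no replicate check, and the part of the matches in these values was not tested.

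The 86 members took 491571 counts in the KO library, 3.71% of its total, and 658738 in the WT library, 5.00%. Without the mitochondrial protein genes these shares were 7.68% and 7.25%. The levels ran from members with no count to 2503 FPKM, and the order of the 72 members was nearly the same in both libraries (Spearman's rho of the FPKM 0.98, as a description over genes of the same 2 libraries). The most abundant in the KO library were *Serpina1e*, *Serpina1c*, *Serpina1b* and *Serpina1a*, and in the WT library *Serpina1c*, *Serpina1b*, *Serpina1e* and *Fgg*.

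**Figure D1:**
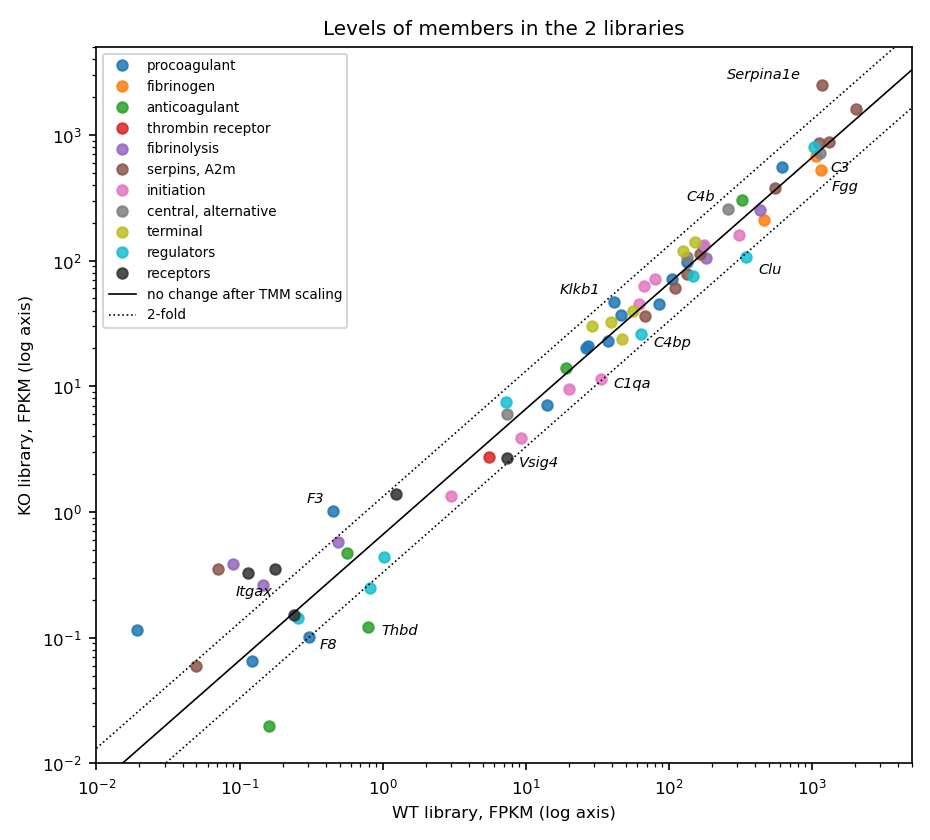
Levels of members with an FPKM above 0 in both libraries, WT on the horizontal and KO on the vertical axis, both logarithmic and coloured by role. The solid line marks no change after TMM scaling and the dotted lines a 2-fold change; *Serpina1e* (2503 FPKM in KO, 1180 in WT) and *Clu* (106 and 344) are the abundant members outside the dotted lines.

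Of the 72 members, 9 (12.5%) were at least 2-fold higher in the KO library and 3 (4.17%) at least 2-fold lower. Among all 13561 genes the shares were 9.46% higher and 9.94% lower. These shares are also the background for each count by role or list below, where the genes are few. With total counts the members split into 7 higher and 14 lower, and all genes into 624 and 3605. *Plaur* and *C3ar1* then fell short of 2-fold higher, and *Fga*, *Fgg*, *C4bp*, the 3 C1q chains, *Masp1*, *F2r*, *F8*, *Cd55* and *Vsig4* joined *Clu*, *Thbd* and *Cd59b* as lower. The median log2 fold change of the members was 0.14, against 0.00 for all genes, and 42 members lay above 0 and 30 below. With total counts that median was −0.46, still 0.14 above the median of all genes.

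Much of this rested on few counts. Of the 9 higher members 8, and of the 3 lower members 2, had under 50 counts in the library with more. Among the 44 members with at least 1000 counts over both libraries, *Serpina1e* was the single member higher (2.27%, against 3.83% of 2090 genes as abundant) and *Clu* the single member lower (2.27% against 4.11%). Of these 44, 35 had a log2 fold change under 0.5 in size. Their median was 0.14, where that of all abundant genes was −0.04. Another 8 members had no count in either library (*F2rl3*, *Bdkrb1*, *Bdkrb2*, *Serpinb2*, *C1s2*, *C7*, *Cd55b* and *Zp3r*), and 6 had 1 to 9 counts (*F13a1*, *Procr*, *F2rl2*, *Cfd*, *Itgam* and *Itgb2l*). For a member at 0, these depths allow up to 3 counts.

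**Figure D2:**
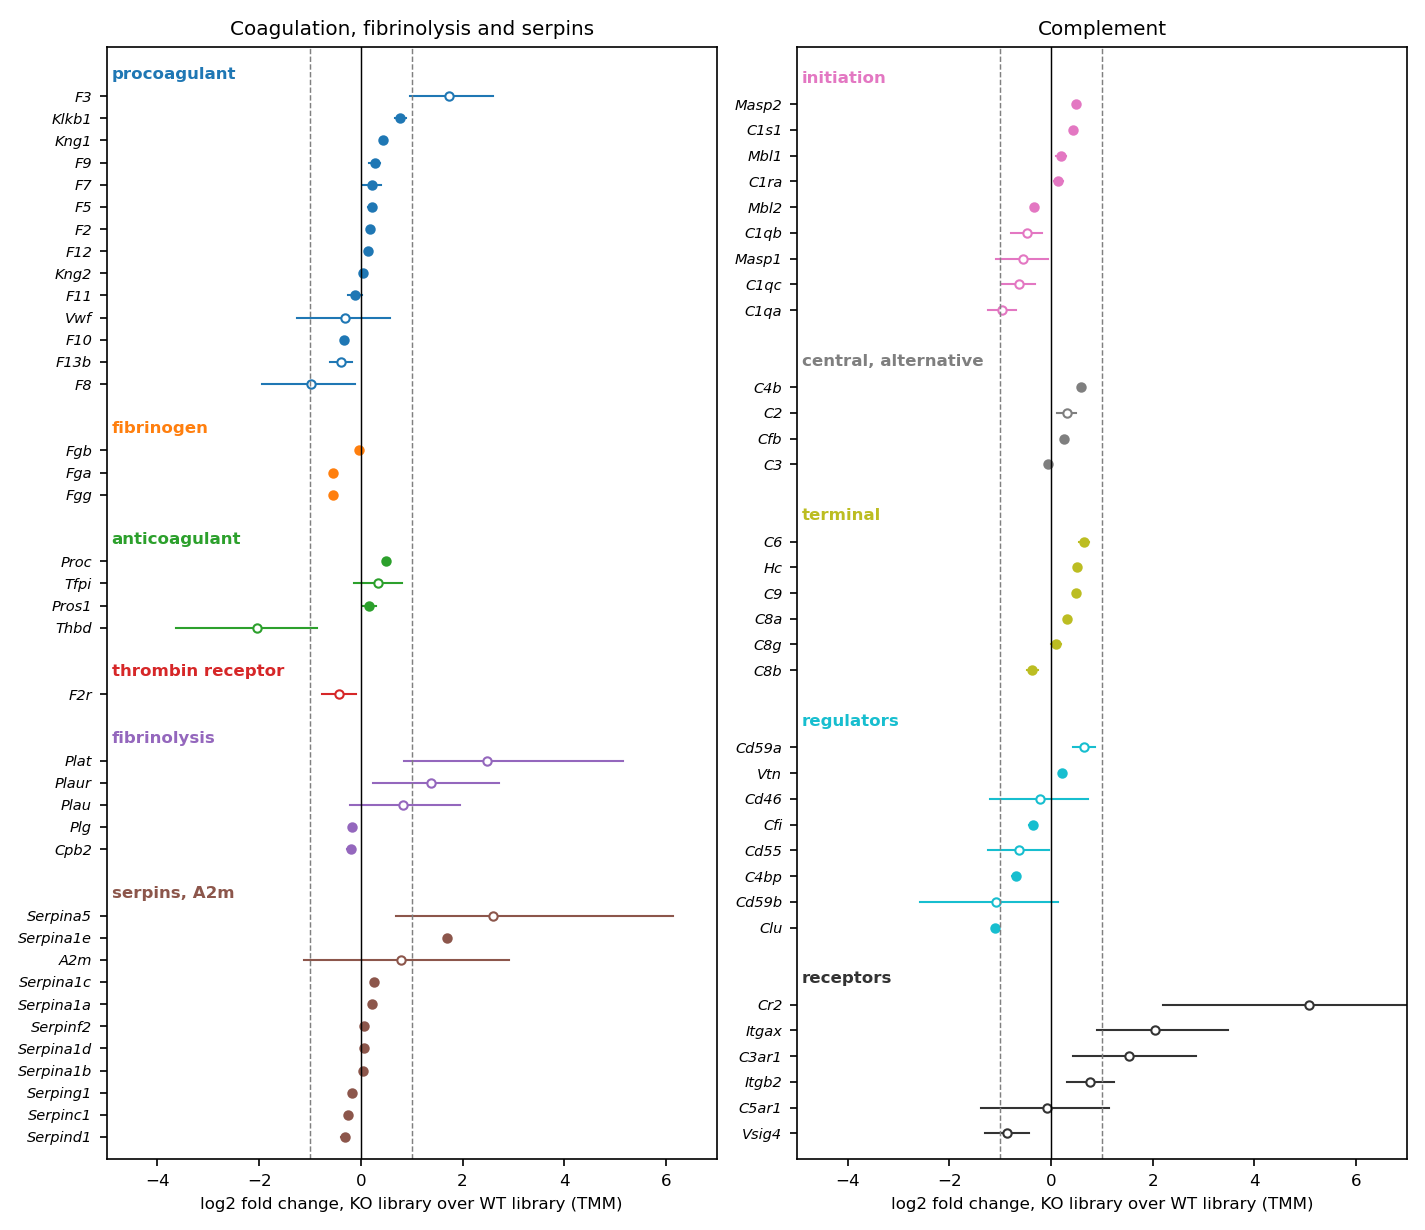
Log2 fold change, KO over WT after TMM, of the members by role, with 95% counting intervals that stop at the axis limits. Filled points have at least 1000 counts over both libraries and dashed lines mark 2-fold. The filled points lie within 2-fold apart from *Serpina1e* (1.69) and *Clu* (−1.10), and 35 of the 44 are under 0.5 in size. Others stand further out, among them *Klkb1* (0.78) and *C4bp* (−0.69). The open points spread more widely.

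The procoagulant proteases and cofactors stood near the median of all genes. Of 14 compared, 1 was at least 2-fold higher and none lower, and their median was 0.16. Thrombin's precursor, *F2*, had 9471 counts in the KO and 12647 in the WT library (0.18, 0.14 to 0.21). The member with the highest level was *Kng1*, which encodes kininogen, the cofactor of the contact phase and source of bradykinin, at 556 FPKM (37723 counts) in KO and 621 FPKM (41913 counts) in WT (0.44, 0.42 to 0.46, and −0.16 with total counts). Its near copy *Kng2* had 71.3 FPKM (3949 counts) in KO and 105 FPKM (5785 counts) in WT (0.04, −0.02 to 0.10). The counts of *Kng1* over *Kng2*, a ratio that needs no scaling, stood 1.32-fold higher in the KO library (1.26 to 1.38), and 17.6% of the 51-base words of *Kng1* occur in *Kng2*, so some reads could belong to either.

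Pairs of neighbours in the clotting chain did not keep a common ratio. These pairs, and the others set side by side below, were chosen after their values were seen. *F10*, the protease that cleaves prothrombin, had 3276 counts in KO and 6187 in WT (−0.32), while *F7*, its activator with tissue factor, had 500 and 648 (0.22). The ratio of *F10* to *F7* was 0.69-fold that of WT (0.61 to 0.78). Both genes lie on chromosome 8. *Klkb1*, plasma kallikrein, had 1538 counts in KO and 1351 in WT (0.78, 0.67 to 0.89), whereas its close relative *F11* had 680 and 1116 (−0.12). This made the *Klkb1* to *F11* ratio 1.87-fold higher in KO (1.65 to 2.11), although the listed *Klkb1* locus overlaps *Cyp4v3* on the same strand. Of the 51-base words of *Klkb1*, 91.7% occur under other annotated identifiers, and 82.0% occur under a second identifier that is also named *Klkb1*. *F12*, *F9* and *F5* lay between 0.14 and 0.27, and *F13b* at −0.39.

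Members of this class that are made mainly outside hepatocytes had few counts. *F3*, tissue factor, the starter of clotting on cell surfaces, had 45 counts in the KO and 20 in the WT library (1.73, 0.97 to 2.60). *F8*, which endothelial cells supply, had 15 and 45 (−0.97, −1.94 to −0.12), and *Vwf*, its carrier, 17 and 32 (−0.31, −1.26 to 0.57). Only the first of these 3 passed 2-fold.

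The 3 fibrinogen chains, which assemble in equal numbers, did not keep step. *Fga* had 11763 counts in KO and 25777 in WT, or 211 and 465 FPKM (−0.54, −0.57 to −0.51). *Fgg* had 16592 and 36539, or 525 and 1164 FPKM (−0.55, −0.57 to −0.52). *Fgb* had 34379 and 53324, or 681 and 1063 FPKM (−0.04, −0.06 to −0.02). No chain passed 2-fold with TMM. The ratio of *Fga* to *Fgg* was the same in both libraries within counting error (1.00-fold, 0.98 to 1.03), whereas *Fgb* over *Fga* and *Fgg* together was 1.42-fold higher in KO (1.39 to 1.44). In the KO library *Fgb* took 54.8% of the fibrinogen counts (54.4% to 55.2%) and in the WT library 46.1% (45.8% to 46.4%). The 3 genes are neighbours on chromosome 3, within 83007724 to 83049863 of the table's coordinates, with *Fgb* on the minus strand and the other two on the plus strand.

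**Figure D3:**
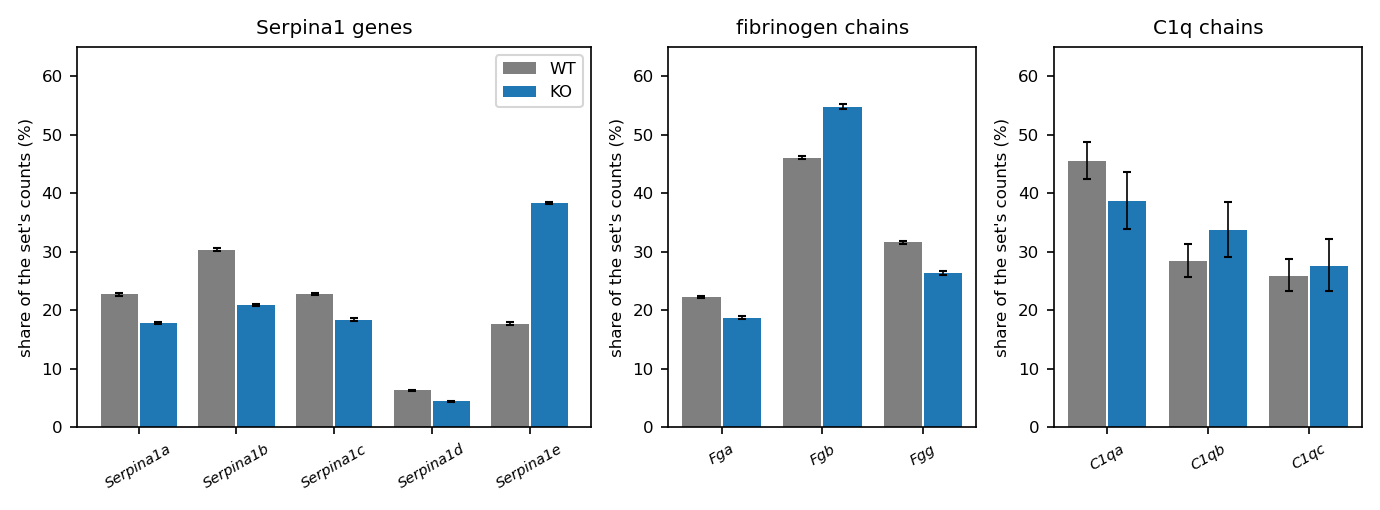
Share of the summed counts of a set taken by each of its genes, in percent, in the WT (grey) and KO (blue) library, with exact 95% binomial intervals. *Serpina1e* took 17.7% of the Serpina1 counts in WT and 38.4% in KO, and *Fgb* took 46.1% of the fibrinogen counts in WT and 54.8% in KO. The intervals of each C1q share overlapped, although the ratio of *C1qa* to *C1qb* was 0.72-fold that of WT (0.54 to 0.95).

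Of the anticoagulant members, *Thbd* was at least 2-fold lower. *Proc*, the precursor of activated protein C, which inactivates clotting cofactors, had 302 FPKM (6265 counts) in KO and 327 FPKM (6731 counts) in WT (0.49, 0.44 to 0.54, below 0 with total counts). *Pros1*, its cofactor, had 853 and 1145 counts (0.17). *Thbd*, thrombomodulin, the endothelial receptor that turns thrombin towards protein C, had 6 counts in the KO and 39 in the WT library (−2.04, −3.64 to −0.86). *Procr*, the endothelial protein C receptor, had 1 and 8 counts and was not compared. Of the 5 receptors for thrombin or kinins, *F2r*, the main thrombin receptor, was the single member with enough counts, with 2.72 FPKM (119 counts) in KO and 5.54 FPKM (241 counts) in WT (−0.42, −0.75 to −0.10).

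In fibrinolysis the abundant and the sparse members stood apart. *Plg*, plasminogen, had 253 FPKM (9249 counts) in KO and 437 FPKM (15832 counts) in WT (−0.18, −0.22 to −0.15). *Cpb2*, a carboxypeptidase that protects fibrin, had 2062 and 3553 counts (−0.19, −0.27 to −0.11). Both stood a little below the median of all genes. The plasminogen activators and their receptor had at most 18 counts in a library. *Plat*, tissue-type activator, had 13 in KO and 3 in WT (2.49, 0.84 to 5.16), *Plaur*, the urokinase receptor, had 18 and 10 (1.39, 0.25 to 2.72), and *Plau*, urokinase, had 18 and 15 (0.83, −0.22 to 1.95). *Plat* and *Plaur* passed 2-fold, on these few counts. *Plat* reached the 10 counts for comparison through the KO library, where it was high.

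*Serpina1e* was the single abundant member at least 2-fold higher. It is a gene for alpha-1-antitrypsin, an inhibitor of serine proteases such as elastase, of which the mouse has several near copies in a row. *Serpina1e* (ENSMUSG00000072849, chr12:103946931-103958975, minus strand, GRCm38) had 60218 counts or 2503 FPKM in the KO library and 28206 counts or 1180 FPKM in the WT library. It was the most abundant member in KO and the third in WT. The log2 fold change was 1.69 (1.67 to 1.71), or 3.22-fold, and 1.08 with total counts. The other 4 copies on the same strand lay close to the median of all genes. *Serpina1a* had 28044 counts (859 FPKM) in KO and 36128 (1113 FPKM) in WT, a log2 fold change of 0.23 (0.20 to 0.25). *Serpina1b* had 32794 counts (883 FPKM) and 48291 (1308 FPKM), or 0.03 (0.01 to 0.05). Both differed from *Serpina1e* beyond counting error. *Serpina1c* had 28939 counts (1605 FPKM) and 36316 (2027 FPKM), or 0.26 (0.24 to 0.29). *Serpina1d* had 7012 counts (380 FPKM) and 10094 (550 FPKM), or 0.07 (0.02 to 0.11). With total counts all 4 were below 0, and *Serpina1e* was not.

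The shift within the family needs no scaling between libraries. *Serpina1e* took 38.4% of the counts of the 5 genes in the KO library (38.1% to 38.6%) and 17.7% in the WT library (17.5% to 17.9%). Its ratio to the other 4 together was 2.89-fold higher in KO (2.84 to 2.93). Summed, the 5 genes had 157007 counts in KO and 159035 in WT, a log2 fold change of 0.57 (0.56 to 0.58) that is near 0 with total counts.

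The coding sequences of *Serpina1b*, *Serpina1c*, *Serpina1d* and *Serpina1e* are 96.3% to 96.7% identical, and in transcripts 34.6% (*Serpina1e*) to 73.8% (*Serpina1c*) of the 51-base words of a copy occur in another gene. How the authors placed reads that match several copies is not given in the sources used here, so the split of counts among the copies is uncertain to that extent. The listed *Serpina1b* locus also overlaps *Serpina1d* on the same strand. A stretch that tells the copies apart lies in the last coding exon, which encodes the reactive centre loop, the bait that a target protease cuts. It is printed for that reason from the reference genome (GRCm38, GENCODE M21), 60 bases on the coding (minus) strand, with capitals where the 5 copies are not all alike. In the order a to e the stretches lie at chr12:103853757-103853816, chr12:103728324-103728383, chr12:103895094-103895153, chr12:103763762-103763821 and chr12:103947100-103947159.
Serpina1a: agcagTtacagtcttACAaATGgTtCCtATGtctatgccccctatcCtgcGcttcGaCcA
Serpina1b: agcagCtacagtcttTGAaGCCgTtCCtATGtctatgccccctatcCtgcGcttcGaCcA
Serpina1c: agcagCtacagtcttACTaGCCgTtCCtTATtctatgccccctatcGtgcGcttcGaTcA
Serpina1d: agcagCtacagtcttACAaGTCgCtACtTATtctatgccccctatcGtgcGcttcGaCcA
Serpina1e: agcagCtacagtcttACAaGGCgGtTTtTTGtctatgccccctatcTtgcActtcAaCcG
This stretch was chosen as the 60-base window in which the copies differ at the most columns. Its share of differing columns was therefore bound to exceed that of the whole. The copies differ at 18 of these 60 columns (30%), against 86 of 1242 (6.92%) in the whole coding sequence. *Serpina1e* has a base of its own, unlike all 4 others, at 24 columns of the coding sequence, and 8 of them fall in this stretch.

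The other abundant serpins lay close to the median of all genes. *Serpinc1*, antithrombin, had 8646 counts in KO and 15521 in WT (−0.25, −0.29 to −0.21). *Serpind1*, heparin cofactor II, stood at −0.31, *Serping1*, the C1 inhibitor, at −0.17, and *Serpinf2*, the plasmin inhibitor, at 0.07. The remaining members of the class had at most 10 counts in a library. *Serpina5*, the protein C inhibitor, had 10 counts in KO and 2 in WT (2.59, 0.68 to 6.14) and passed 2-fold. It reached the 10 counts for comparison through the KO library, where it was high. *A2m* had 6 and 5. Over the 12 serpins and alpha-2-macroglobulin compared, 3 were higher and none lower, with a median of 0.15.

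Among the starters of the complement chain, none of 9 compared passed 2-fold, and their median was −0.33. The chains of C1q, the antibody-binding part of C1, are made by macrophages in liver. *C1qa* had 156 counts in KO and 459 in WT (−0.96, −1.24 to −0.70), *C1qb* 136 and 287 (−0.48, −0.79 to −0.19) and *C1qc* 111 and 261 (−0.64, −0.97 to −0.32). All 3 lay below 0 with TMM and with total counts, and none passed 2-fold with TMM. In bulk liver RNA, fewer cells of a type and less RNA per cell cannot be told apart. Of 10 markers of Kupffer cells and macrophages 9 lay below 0, with a median of −0.30 and summed levels of 58.6 FPKM in KO and 108 FPKM in WT, none at 0 in either library (summed counts after TMM −0.32, −0.40 to −0.23), and 2 passed 2-fold, *Marco* (139 and 447 counts) and *Adgre1* (12 and 41). Their part in the C1q values was not tested. The ratio of *C1qa* to *C1qb* was 0.72-fold that of WT (0.54 to 0.95), and that of *C1qa* to *C1qc* 0.80-fold (0.59 to 1.08), an interval that includes no difference.

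The proteases of C1 and the lectins are hepatocyte products and split by gene. *C1s1* had 71.1 FPKM (4814 counts) in KO and 79.5 FPKM (5355 counts) in WT (0.44, 0.38 to 0.50), and *C1ra*, its partner in C1, had 44.8 FPKM (1771 counts) and 61.6 FPKM (2417 counts), or 0.14 (0.05 to 0.23). Both are below 0 with total counts, and the second identifier of each pair of copies, *C1s2* and *C1rb*, had at most 1 count, although 23.8% and 50.4% of the 51-base words of *C1s1* and *C1ra* occur in other genes. *Masp2*, the lectin-pathway protease that cleaves C4, had 3288 and 3515 counts (0.50), while *Masp1*, which activates it, had 49 and 109 (−0.56, −1.08 to −0.06). The mannose-binding lectins differed as well. *Mbl2* had 161 FPKM (2350 counts) in KO and 307 FPKM (4452 counts) in WT (−0.33, −0.40 to −0.26), *Mbl1* had 1622 and 2145 counts (0.19, 0.10 to 0.28), and their ratio *Mbl1* over *Mbl2* was 1.43-fold higher in KO (1.32 to 1.56).

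The central components bracketed 0. *C3*, which all 3 routes of complement activation converge on, had 712 FPKM (53567 counts) in KO and 1133 FPKM (84717 counts) in WT (−0.07, −0.08 to −0.05). *C4b*, which with C2 forms the protease that cleaves C3, had 256 FPKM (21323 counts) and 258 FPKM (21385 counts), or 0.59 (0.56 to 0.62), and −0.01 with total counts. Relative to *C3*, *C4b* was 1.58-fold higher in the KO library (1.54 to 1.61). Its neighbour and near copy *C4a*, which is not in the KEGG entry of the table, had 2000 counts in KO and 740 in WT (2.03, 1.90 to 2.15). The *C4a* to *C4b* ratio was 2.71-fold higher in KO (2.48 to 2.96), and the genes summed gave 0.67 (0.64 to 0.70). Since 34.6% of the 51-base words of *C4b* occur in another gene, some reads could belong to either.

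Factor B and C2 kept step. *Cfb*, factor B, had 6727 counts in KO and 8489 in WT (0.26), its neighbour *C2* had 449 and 547 (0.31), and the ratio of *Cfb* to *C2* did not differ beyond counting error (0.97-fold, 0.85 to 1.10). Both overlap *Gm20547*, a listed gene on the same strand with 1962 and 2569 counts (0.20), so reads could pass between the 3. *Cfd*, factor D, which is made mainly in fat, had 5 counts in KO and none in WT and was not compared.

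Of the 6 terminal components compared, which build the membrane pore, 5 lay above 0 and none passed 2-fold. Their median was 0.40, and it is below 0 with total counts. *C9*, the pore's repeated unit, had 140 FPKM (6148 counts) in KO and 152 FPKM (6634 counts) in WT (0.48, 0.43 to 0.53). *Hc*, which encodes C5, had 10843 and 11483 counts (0.51), and *C6* had 1910 and 1842 (0.64, 0.55 to 0.74). The chains of C8 were uneven. *C8a* had 2869 and 3473 counts (0.32) and *C8g* 1643 and 2316 (0.10), but *C8b*, which lies beside *C8a* on chromosome 4, had 1057 and 2065 (−0.37, −0.48 to −0.27). The *C8b* to *C8a* ratio was 0.62-fold that of WT (0.57 to 0.68).

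*Clu* was the single abundant member at least 2-fold lower after TMM. It encodes clusterin, a chaperone of plasma that also blocks the terminal complement pore. *Clu* (ENSMUSG00000022037, chromosome 14, 65968483 to 65981548 in the table's coordinates) had 7910 counts or 106 FPKM in the KO library and 25582 counts or 344 FPKM in the WT library. The log2 fold change was −1.10 (−1.14 to −1.06), or 2.15-fold lower, and −1.70 with total counts. Against the summed counts of all other members compared, *Clu* in KO was 0.405-fold its WT value (0.395 to 0.415). *Vtn*, vitronectin, which binds the same terminal complex, was the most abundant regulator, with 795 FPKM (35689 counts) in KO and 1036 FPKM (46237 counts) in WT (0.22, 0.20 to 0.24). The ratio of *Vtn* to *Clu* was 2.50-fold higher in KO (2.43 to 2.57).

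Other regulators were at or below the median of all genes, apart from *Cd59a*. *C4bp*, which inactivates C4b, had 2530 and 6168 counts (−0.69, −0.76 to −0.63), and *Cfi*, the protease that C4bp assists, had 2451 and 4743 (−0.36). *Cd59a*, the membrane inhibitor of the pore, had 7.52 FPKM (355 counts) in KO and 7.29 FPKM (342 counts) in WT (0.65, 0.43 to 0.86), while its sparse copy *Cd59b* had 0.25 FPKM (7 counts) and 0.82 FPKM (23 counts), or −1.08 (−2.59 to 0.14). *Cd59b* counts as lower, with an interval that includes 0. *Cd55*, which dissolves the C3-cleaving enzyme on cell surfaces, had 36 and 84 counts (−0.62), and *Cd46* had 16 and 28 (−0.21). Over the 8 regulators compared, 2 were lower and none higher, with a median of −0.49.

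Complement receptors are found on leukocytes, and none had over 173 counts in a library. *Vsig4*, the receptor by which Kupffer cells take up C3-coated particles, had 2.66 FPKM (63 counts) in KO and 7.36 FPKM (173 counts) in WT (−0.86, −1.30 to −0.44). It is also 1 of the 10 macrophage markers above. The leukocyte integrins include receptors for split C3. *Itgb2*, their common chain, had 86 and 76 counts (0.77, 0.31 to 1.24), and *Itgax* had 23 and 8 (2.04, 0.90 to 3.49). *Itgam*, the other alpha chain of the pathway, had 2 and 0 counts under the member's identifier, and a second listed *Itgam* that overlaps it on the same strand had 11 and 15 (0.14). *C3ar1*, the receptor for C3a, had 20 and 10 counts (1.54, 0.43 to 2.85), but *C5ar1*, the receptor for C5a, had 10 and 16 (−0.08, −1.39 to 1.14). *Cr2*, the B cell receptor for C3d, had 13 counts in the KO library and none in the WT library. Against a floor of 3 counts in WT this is 6.53-fold higher, a value that leaves out the counting error of the 13 counts. The counting interval of its log2 fold change started at 2.20 and had no upper end. Of 6 receptors compared, 3 were higher and none lower, with a median of 1.15 (also with *Cr2* taken at 6.53-fold). *Cr2* was compared only because of its counts in the KO library, where it was high. Its call, the number of higher receptors and their median therefore rest in part on the filter. Only *Vsig4* (−0.86) and *Itgb2* (0.77) had at least 50 counts over both libraries. Their median of −0.047 lies between values that went opposite ways.

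**Figure D4:**
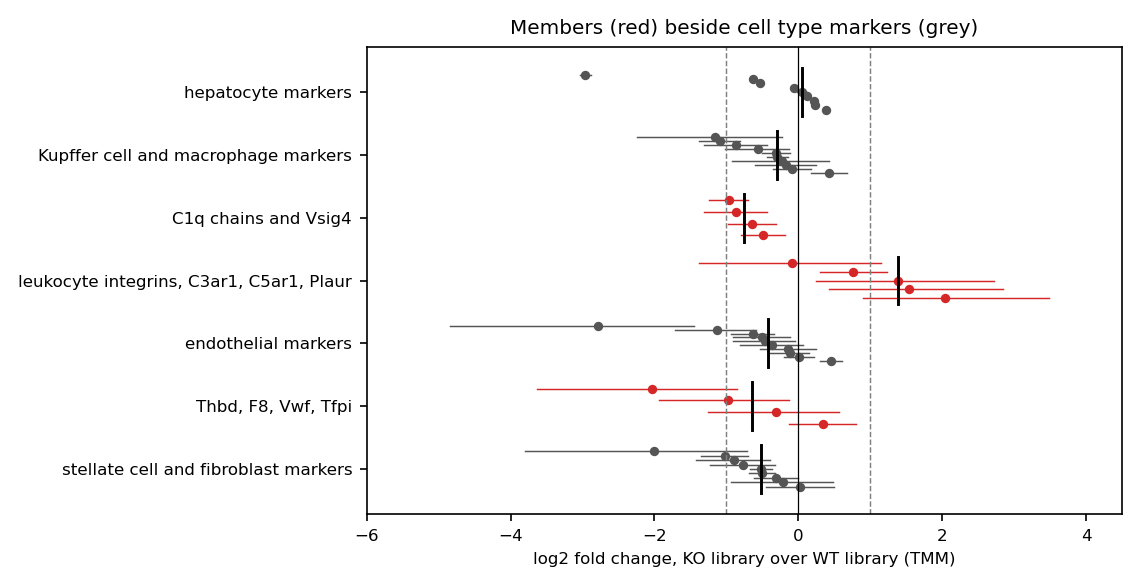
Log2 fold change, KO over WT after TMM, of members grouped by the cell type they are known from (red) beside marker genes of cell types (grey), each point a gene with its 95% counting interval and each black bar the median of a row; intervals stop at the axis limits. The C1q chains and *Vsig4* lie below 0 as do 9 of 10 macrophage markers. *Vsig4* is itself 1 of these 10 markers and is drawn in both rows. *Itgax* (2.04), *C3ar1* (1.54), *Plaur* (1.39) and *Itgb2* (0.77) lie above 0, and *C5ar1* (−0.08) just below. *Thbd*, *F8* and *Vwf* lie below 0, and *Tfpi* (0.34) in the same row lies above.

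Marker genes of other cells are given beside these sparse members. *Itgb2*, *Itgax*, *C3ar1* and *Plaur*, and also *C5ar1* at −0.08 (10 and 16 counts), are carried by neutrophils, monocytes and macrophages. The markers of Kupffer cells and macrophages given above went the other way, with 9 of 10 below 0 and a median of −0.30. The 4 of 7 neutrophil markers with enough counts had a median of 0.36, from 0.00 (*S100a8*) to 0.61, none past 2-fold. The neutrophil list summed to 32.2 FPKM in KO and 45.4 FPKM in WT, or 0.20 (0.02 to 0.38) in counts after TMM. *Ly6g* was at 0 in both libraries, and *Elane* (0 and 5 counts) and *Mpo* (0 and 1) were at 0 in KO. For *Cr2*, 3 of 7 lymphocyte markers had enough counts, with 33 counts summed over the list in KO and 43 in WT. *Thbd*, *F8* and *Vwf* lay below 0, while *Tfpi* lay above, at 0.34 (−0.13 to 0.80, 73 and 87 counts). For this group, 8 of 10 endothelial markers lay below 0, with a median of −0.42. The markers summed to 15.1 FPKM in KO and 27.8 FPKM in WT, with none at 0. Their summed counts after TMM gave −0.06 (−0.15 to 0.03). *Lyve1* (4 and 45 counts) and *Tek* (36 and 119) passed 2-fold, and *Stab1* stood at 0.46. For *F3* and *Plat*, which mesenchymal cells also make, 8 of 9 stellate cell and fibroblast markers lay below 0 (median −0.52, 27.4 FPKM and 61.6 FPKM summed, or −0.55 in summed counts after TMM). The part of these cells in the members' values was not tested.

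Promoters of the members shared sequence features that the choice by KEGG did not use. RefSeq promoters, 250 bases before to 50 after the annotated start (GRCm38.p6), were at hand for 36 of the 44 abundant members and 54 of the 72 compared. The core GTTAAT of the site for HNF1, a hepatocyte transcription factor, was sought on both strands, as were TTGCNNAA for C/EBP, CAAAGTCCA for HNF4 and TATAAA for the TATA box. Overlaps between motifs were not removed. GTTAAT was found in 14 of 36 abundant members (38.9%) and 17 of the 54 compared (31.5%). The background was 4.48% of 9956 genes compared and 7.20% of 27025 promoters in all. TTGCNNAA was found in 16 of 36 (44.4%) and 18 of 54 (33.3%), against 8.75% and 10.8%. The Serpina1 copies, whose promoters are much alike, are all among the 14 and mostly among the 16. Their matches are therefore not independent. CAAAGTCCA was found in none of 36, against 0.532% and 0.477%, and TATAAA in 4 (11.1%), against 7.40% and 14.2%. Genes abundant in liver for other reasons were not set apart in these backgrounds.

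**Figure D5:**
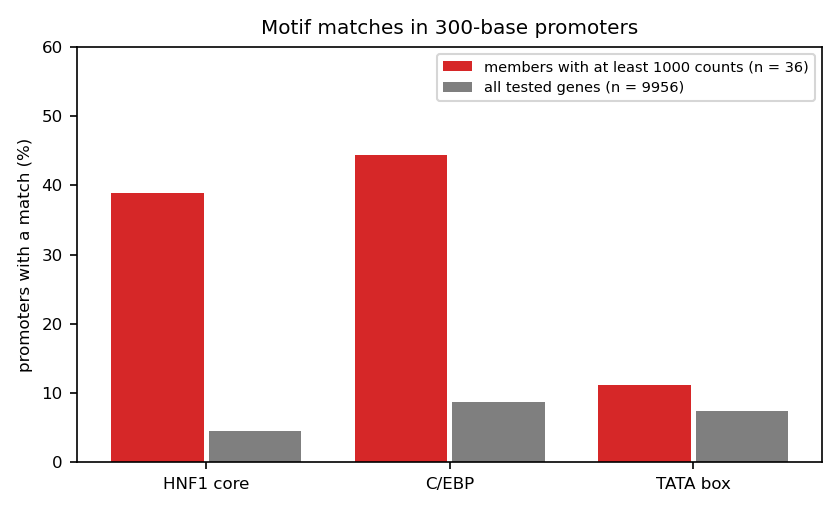
Percent of promoters with at least 1 match on either strand, for the 36 abundant members with a promoter (red) and all 9956 tested genes with a promoter (grey). The HNF1 core was found in 38.9% against 4.48% and the C/EBP motif in 44.4% against 8.75%, while the TATA box was found in 11.1% against 7.40%.

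All 5 Serpina1 genes held GTTAAT, as did *F2*, *Fgb*, *Fga*, *C1ra*, *Hc*, *C8a*, *C8b*, *Vtn* and *C4bp*, whose log2 fold changes ran from −0.69 (*C4bp*) to 1.69 (*Serpina1e*). The promoters of *Serpina1e* (chr12:103956848-103957147) and *Fgb* (chr3:83049814-83050113), both on the minus strand, are printed since these genes departed from the others of their sets. Each is written 5′ to 3′ on the strand of the gene, with the HNF1 core, in either direction, in capitals.
Serpina1e: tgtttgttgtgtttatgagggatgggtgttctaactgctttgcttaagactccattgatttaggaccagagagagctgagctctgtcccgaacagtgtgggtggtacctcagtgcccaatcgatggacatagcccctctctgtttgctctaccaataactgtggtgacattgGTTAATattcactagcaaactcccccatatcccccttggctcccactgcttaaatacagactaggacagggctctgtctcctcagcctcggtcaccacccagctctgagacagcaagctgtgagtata
Fgb: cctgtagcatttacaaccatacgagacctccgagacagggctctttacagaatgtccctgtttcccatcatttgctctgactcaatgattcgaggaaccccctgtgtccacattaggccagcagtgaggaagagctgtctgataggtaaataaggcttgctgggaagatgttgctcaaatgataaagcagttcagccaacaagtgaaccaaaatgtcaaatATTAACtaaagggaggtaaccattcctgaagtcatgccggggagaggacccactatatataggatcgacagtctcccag
*Fga* and the 4 other Serpina1 genes held the same letters.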

How the data were processed

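RNA-seq of liver was analysed for 1 KO and 1 WT library. The authors deposited raw counts for each gene and FPKM, which are scaled by the total count. The submitters' processing notes name HISAT2 2.0.4, StringTie and edgeR, and the build hg38, although identifiers and loci are those of mouse, and the counting program and annotation are not given in the sources used here. Of the 86 members, 67 have the table's coordinates in GENCODE M21 (GRCm38).

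The fits used edgeR 4.0.16 and DESeq2 1.42.0 (R 4.3.3). Intervals, sequence searches and plots used scipy 1.17.1, numpy 2.4.6, pandas 2.3.3 and matplotlib 3.10.9 (Python 3.11.15). Genes with fewer than 10 counts summed over the libraries were left out, libraries were scaled by TMM, and log2 fold changes were taken from CPM with a prior count of 0.5. A gene was called at 2-fold, with no test. Intervals of folds and shares are exact 95% binomial intervals, and for ratios with over 100000 counts log-normal ones. A count of 3 was taken as the floor. Shared sequence is the percentage of 51-base words of the longest transcript that occur in another gene. The fold-change step was tested on simulated counts with counting error only, with log2 changes of 2 planted in 200 genes that were not sparse. Intervals, ratios, shares, sequence searches and calls on few counts were not covered by that test. Members given in full are those past 2-fold with at least 50 counts in the higher library, the member with the highest FPKM in each role and near-identical copies. Others named individually were chosen after their values were seen. Other scalings, filters, pseudocounts and call rules were tried as alternatives, a minimum of 1000 counts after the data had been seen. The members, roles and lists were chosen with earlier results of these data known. A member that is counted in the totals is not reported individually here.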

Additional observations from a re-analysis of the deposited data

How the results depend on the processing

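With 1 library per genotype, no setting measures the spread between mice, and members with few counts are limited by depth. No paired analysis was possible because there is 1 library per genotype. DESeq2's size factors, the upper quartile and a prior count of 5 moved no count by over 1.5 times. With total counts, 14 members and 3605 genes were lower and 624 genes higher, and the members' median was −0.46. Without mitochondrial protein genes, 9 members were higher and 5 lower, and 1147 and 1525 genes. With FPKM and a pseudocount of 0.1, 4 members were higher and 14 lower, 405 genes higher and 2934 lower, and the median was −0.44. With a pseudocount of 1, 1 member was higher and 8 lower, 105 genes were higher, and the median was −0.40. From 1 count up, 5 members were lower, and 2289 genes higher and 2752 lower. From 50 counts, 2 members were higher and 1 lower, and 642 and 766 genes. From 1000 counts, it was 1 and 1 members, and 80 and 86 genes. The median of the complement receptors turned from 1.15 to −0.047 with at least 50 counts, where 4 sparse receptors drop out. Only *Vsig4* (−0.86) and *Itgb2* (0.77) are then left. At 1.5-fold, 16 members were higher and 9 lower, and 2534 and 2625 genes. A 2-fold change with an exact binomial test left 8 higher and 2 lower members, and 1081 and 1128 genes. With edgeR's exact test at a coefficient of variation taken to be 0.2, 3 members were higher and 0 lower, and 488 and 444 genes. At 0.4, 0 members were called in either direction, against 59 and 58 genes.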

Other observations

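Genes around the pathway, most of them outside the KEGG entry, were read from lists of related function. *Masp1*, in the complement list, and *Procr*, in the coagulation list, are members that were also described above. The lists hold few genes, and among all 13561 genes compared 9.46% were at least 2-fold higher and 9.94% lower. Of 7 genes for the vitamin K cycle and the secretion of clotting factors, 2 were at least 2-fold lower and none higher, with a median log2 fold change of −0.52. *Nqo1*, a quinone reductase, had 30 counts in the KO and 156 in the WT library (−1.77, −2.40 to −1.22). *Vkorc1l1*, a relative of the vitamin K epoxide reductase, had 150 and 483 (−1.09, −1.37 to −0.83). The reductase itself, *Vkorc1*, had 773 and 705 counts (0.72), and *Ggcx*, the carboxylase that uses vitamin K on clotting factors, had 274 and 594 (−0.52). *Lman1* and *Mcfd2*, which together carry factors V and VIII out of the endoplasmic reticulum, stood at 0.01 and −0.67.

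Of 16 complement genes of related function, 1 was higher and 1 lower, with a median of −0.11. *Susd4*, a membrane protein with complement control domains, had 224 counts in KO and 49 in WT (2.77, 2.33 to 3.26). *Fcna*, ficolin A, a lectin made by macrophages, had 79 and 342 (−1.52, −1.89 to −1.16). Of 17 coagulation genes of related function, *Fgl2* was the single gene past 2-fold, with 25 and 10 counts (1.85, 0.81 to 3.14), and the median was 0.03. None of 7 clearance receptors passed 2-fold (median 0.01). Of 5 cholangiocyte markers, 2 were higher, and of 5 platelet markers with enough counts 3 were lower, *Pf4* (3 and 17 counts), *Ppbp* (3 and 19) and *Gp9* (3 and 11), while *Itga2b* (57 and 55) and *Gp1bb* (20 and 17) stood at 0.64 and 0.81.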
